A study of Mus musculus with 12 samples.

Results

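Gastrin, the peptide hormone that drives acid secretion, was given back to mice that cannot make it, and their fundic mucosa, which lines the acid-secreting body of the stomach, was compared with that of the same knockout given saline. Both groups were gastrin knockout mice infused for 1 week, with gastrin in one and saline in the other, so they shared the deletion and an infusion and differed in what was infused. The comparison used 6 of the series' 12 arrays, 3 per group, chosen by their titles, and all 22626 probe sets that remained after 64 controls were set aside. Each probe set combines several short probes that match one transcript. The tissue was a scraping of the fundic mucosa. The labels describe the saline-infused animals as males aged 2 months; the age and sex of the gastrin-infused animals and the form and dose of gastrin were not stated in those labels. The other 6 arrays were of wild-type fundus, each pooled from several mice, and of a gastrin and CCK double knockout, neither described as infused. Wild-type levels stand beside the results for orientation. All 12 arrays entered the fit, so each standard error and p-value also drew on the spread of the pooled wild-type and the double-knockout arrays. Whether the 3 samples within a group represent different animals is not stated, and the p-values accordingly reflect sample-to-sample spread that could be technical only. A scraping holds many cell types, and in it more cells of a type and more RNA per cell cannot be told apart.

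Gastrin acts on the receptor encoded by Cckbr. In the fundus the receptor sits on enterochromaffin-like cells, endocrine cells that make histamine with the enzyme histidine decarboxylase and store it in granules rich in chromogranins, and on parietal cells, which secrete acid through the gastric proton pump. Histamine from the former stimulates the latter. Gastrin is also known as a growth factor for the fundic mucosa, and somatostatin, from neighbouring D cells, restrains the whole circuit.

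The promoters of 4 endocrine genes that rose with gastrin are printed first, because GC-rich Sp1 motifs and cAMP-response elements (CRE) are reported to carry the response of the chromogranin A promoter to gastrin. The windows run from 250 bases before to 50 bases after the RefSeq start on GRCm38.p6: chr2:126618629-126618928 on the minus strand for Hdc, chr2:132781392-132781691 on the plus strand for Chgb, chr12:102554691-102554990 on the plus strand for Chga and chr16:23890795-23891094 on the minus strand for Sst. Capitals mark the Sp1 motif GGGCGG in Hdc, both GGGCGG and the CRE TGACGTCA in Chgb, GGGCGG in Chga and the CRE in Sst, each searched on both strands. Chga held 2 GGGCGG motifs and 0 full CRE motifs in its window.
Hdc: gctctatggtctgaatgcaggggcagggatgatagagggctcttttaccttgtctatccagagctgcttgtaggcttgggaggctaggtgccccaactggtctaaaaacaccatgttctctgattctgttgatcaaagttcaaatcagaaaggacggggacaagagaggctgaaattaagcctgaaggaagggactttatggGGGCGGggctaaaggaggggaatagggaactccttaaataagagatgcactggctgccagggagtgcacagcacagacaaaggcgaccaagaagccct
Chgb: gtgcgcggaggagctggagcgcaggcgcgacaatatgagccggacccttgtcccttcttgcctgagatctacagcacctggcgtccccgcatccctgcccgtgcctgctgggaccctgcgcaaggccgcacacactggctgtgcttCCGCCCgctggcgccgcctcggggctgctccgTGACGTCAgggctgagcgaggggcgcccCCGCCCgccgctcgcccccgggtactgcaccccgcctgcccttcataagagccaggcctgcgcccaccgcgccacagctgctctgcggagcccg
Chga: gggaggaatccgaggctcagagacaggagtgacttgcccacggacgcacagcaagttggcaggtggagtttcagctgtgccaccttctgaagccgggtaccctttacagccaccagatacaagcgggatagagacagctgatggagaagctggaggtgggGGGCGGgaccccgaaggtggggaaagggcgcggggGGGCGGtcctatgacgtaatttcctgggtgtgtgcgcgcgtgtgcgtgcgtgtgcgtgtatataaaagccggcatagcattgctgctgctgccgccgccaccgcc
Sst: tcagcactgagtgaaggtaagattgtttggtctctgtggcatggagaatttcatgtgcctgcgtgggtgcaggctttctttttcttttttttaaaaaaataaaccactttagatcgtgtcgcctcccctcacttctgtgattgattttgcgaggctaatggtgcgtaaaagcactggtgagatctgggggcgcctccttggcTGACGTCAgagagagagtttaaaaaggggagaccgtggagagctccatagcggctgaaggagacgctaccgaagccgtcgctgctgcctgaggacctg
The CRE occurred in 1.79% of 32851 promoters in the table and in 4 of the 154 promoters of the 122 genes that rose and had an entry (2.6%: Chgb, Sst, the lysosomal membrane protein gene Lmbrd1 and the complex I gene Ndufa10). It occurred in 0 of 103 promoters of the 74 genes that fell and had an entry. GGGCGG was in 35.7% of all promoters, in 92 of the 154 (59.7%) and in 53 of the 103 (51.5%). Some genes have several promoters in the table, so these are shares of promoters, not of genes. A motif match is a description of the sequence and no test was made of it.

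Gast itself served as a check on the genotype. It read 37, -8 and 31 intensity units on the saline-infused arrays and -72, -34 and -43 on the gastrin-infused arrays. Wild type read 596, 318 and 823. Every infused array lay within its noise level, taken as the lowest percentile of the array with its sign turned (85 to 96 units), as a knockout label implies, and infused peptide adds no transcript. The 6 infused arrays were alike in medians, in the share of negative values and in correlation. Their medians lay between 405 and 413, 6.0% to 6.43% of values were below 0, and the correlation of log2 values over all probe sets was 0.955 to 0.962 within a group and 0.946 to 0.955 across groups. The Gapdh control signal at the 3' end, divided by that at the 5' end, was 1.01 to 1.18 with saline and 1.17 to 1.21 with gastrin. These ranges overlapped, with gastrin on the higher side. The ratio was 1.51, 2.00 and 0.98 in wild type and 1.32, 1.30 and 1.29 in the double knockout. With this ratio as a covariate 152 probe sets passed the threshold instead of the 282 given next, and 130 of the 152 were among the 282.

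In all, 282 of 22626 probe sets passed (1.25%; limma, adjusted p under 0.05), 175 higher with gastrin (0.773%) and 107 lower (0.473%), and those with a single symbol named 235 genes. All 282 had groups that did not overlap, as did 4711 probe sets over the whole array (20.8%). The median log2 fold change over all probe sets was 0. In counts of gene lists below, each gene is represented by its brightest probe set; on that basis 176 of 12393 genes passed (1.42%), 111 higher (0.896%) and 65 lower (0.524%). Calls numbered 97, 67 and 92 without gastrin-infused replicate 1, 2 and 3, and 68, 137 and 79 without saline-infused replicate 1, 2 and 3. In the same order, 73, 49 and 74, and 50, 107 and 57, of these calls were among the 282. Of the 30 genes named by size of change, 8 passed in all 6 of those fits: Hdc, Chgb, Ccn3, Chga, Ppp1r3c, Obp2a, Ckb and S100a14. The calls lost among the 30 numbered 16, 19 and 15 without gastrin-infused replicate 1, 2 or 3 and 20, 17 and 19 without saline-infused replicate 1, 2 or 3.

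**Figure D1:**
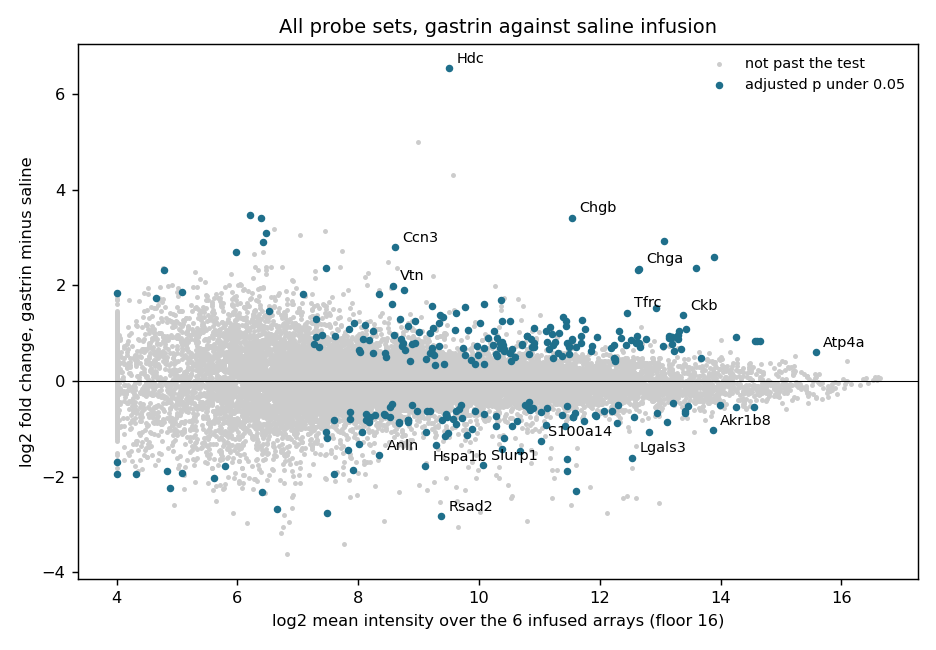
Log2 fold change (gastrin minus saline infusion) of each of 22626 probe sets against the log2 of its mean intensity over the 6 infused arrays; blue points are the 282 with adjusted p under 0.05. Hdc stands highest at 6.54, and the 175 rises and 107 falls lie on both sides of 0.

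The histamine-forming enzyme gene Hdc changed most. On one of its 2 probe sets it read -40, -48 and -90 with saline and 1390, 1926 and 1225 with gastrin, against 490, 686 and 416 in wild type. All saline values were within the noise, and all gastrin values were above every wild-type value. The rise was at least 16.3-fold (log2 fold change 6.54 ± 0.20 standard error, adjusted p = 1.81e-06), with the size of the log2 value set largely by the floor of 16 units. Gastrin-infused Hdc also exceeded wild type (log2 difference 1.52 ± 0.20, adjusted p = 0.0307), a comparison in which infusion differs along with genotype. The brighter Hdc probe set read 212, 73 and 22 with saline and 1229, 1897 and 1133 with gastrin, likewise with no overlap, and missed the threshold (4.31 ± 0.85, adjusted p = 0.0506). Of the other 9 measured genes in the list of histamine handling and enterochromaffin-like cells, 1 passed, Cckbr.

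Cckbr, the gastrin receptor gene, read 237, 304 and 374 with saline and 773, 901 and 996 with gastrin on its brighter probe set. The lowest gastrin array was above the highest saline array by a wide margin, and the rise was 2.95-fold (1.56 ± 0.22, adjusted p = 0.0213, at most 0.0648 with 1 array left out). The second probe set of Cckbr read 407, 453 and 518 against 723, 692 and 399, and there the groups overlapped (0.35 ± 0.28, adjusted p = 0.595). The histamine receptor gene Hrh2, of the parietal cell, read 1274, 1320 and 1180 against 1512, 1514 and 1481; these groups were apart by a small step that did not pass (0.26 ± 0.09, adjusted p = 0.198). Cckar, the related receptor for CCK, gave 0.47 ± 0.13 (adjusted p = 0.129).

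Granins are acidic proteins that pack hormone and amine granules. Of 17 measured genes for granins and the enzymes that process their cargo, 3 rose and none fell. Chgb, encoding chromogranin B, read 573, 610 and 364 with saline and 4794, 7011 and 4587 with gastrin, with 877, 1927 and 935 in wild type. Every gastrin array was above every array of both other groups, a 10.7-fold rise over saline (3.41 ± 0.39, adjusted p = 0.0108), while the difference from wild type did not pass (2.2, adjusted p = 0.0829). Chga, encoding chromogranin A, went from 2041, 2125 and 2098 to 8765, 13433 and 10235. The saline arrays were within a narrow band, and the rise was 5.1-fold (2.35 ± 0.21, adjusted p = 0.00531). Resp18, a neuroendocrine granule protein gene, read 181, 152 and 92 against 538, 666 and 315, a 3.55-fold rise whose call was lost in 5 of 6 left-out fits (1.83 ± 0.34, adjusted p = 0.043, up to 0.125).

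The remaining 14 genes of that list did not pass. Scg5, a chaperone of prohormone convertase 2, read 296, 308 and 240 against 728, 765 and 523, apart on every array but just short of the threshold (1.24 ± 0.25, adjusted p = 0.0517). Pam, which amidates peptide hormones, gave 0.39 ± 0.10 (adjusted p = 0.103), and the carboxypeptidase gene Cpe 0.46 ± 0.23 (adjusted p = 0.377). The list's median was 0.39, against 0.00 over all genes, and its members' summed intensity was 12104 to 12342 on the saline arrays and 26474 to 32928 on the gastrin arrays. None of the 7 measured endocrine transcription factors passed; Insm1, which directs endocrine differentiation, read 104, 24 and 148 against 179, 242 and 227 (1.58 ± 0.56, adjusted p = 0.214).

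Among gut hormones 1 of 17 measured genes passed. Sst, encoding somatostatin, the brake on gastrin and acid release, read 5681, 8169 and 6216 with saline and 13649, 13417 and 14138 with gastrin, against 16905, 23726 and 15346 in wild type. The double knockout, which also lacks gastrin, read 13737, 12221 and 9744, above all saline arrays. The gastrin arrays were close to each other, above all saline arrays and below all wild-type arrays. The rise was 2.08-fold (1.06 ± 0.20, adjusted p = 0.0425, up to 0.12 with 1 array left out, when 5 of 6 fits lost it). Ghrl, for the appetite hormone ghrelin of X/A-like cells, read 30263, 28305 and 30624 against 40888, 38781 and 37256; the groups did not overlap and the change did not pass (0.39 ± 0.10, adjusted p = 0.105). Iapp, the amylin gene, read 81, 81 and 92 against 227, 208 and 216, with the saline values within the noise (at least 2.39-fold, 1.36 ± 0.42, adjusted p = 0.155).

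Further large rises were of genes outside the endocrine lists. Ccn3, a matricellular signalling protein gene, read 101, 99 and 95 with saline, 672, 637 and 750 with gastrin and 328, 427 and 449 in wild type. It rose 6.97-fold (2.80 ± 0.12, adjusted p = 1.16e-05), with both of its probe sets called, and every gastrin array was above every wild-type array, though this step above wild type missed the threshold (adjusted p = 0.0577). Obp2a, an odorant-binding lipocalin gene, read 387, 431 and 503 against 1484, 1423 and 990, with 503 to 527 in wild type. The saline and wild-type arrays were alike and the gastrin arrays apart (1.55 ± 0.19, adjusted p = 0.0139). Sult1a1, a phenol sulfotransferase gene, showed the same order of levels, with 647, 567 and 591 with saline, 1757, 2933 and 1411 with gastrin and 562 to 769 in wild type (1.69 ± 0.24, adjusted p = 0.0232).

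Cyp2b10, a drug-metabolising cytochrome P450 gene, was above wild type in both infused groups. It read 778, 491 and 372 with saline, 1744, 1287 and 1816 with gastrin, and 253, 231 and 233 in wild type. The 3 groups did not overlap, and gastrin differed from saline (1.61 ± 0.24, adjusted p = 0.0255) and from wild type (2.74, adjusted p = 0.00493). Against saline, 2 of 3 Cyp2b10 probe sets passed. In the list of drug and steroid metabolism, 2 of 27 measured genes rose, Cyp2b10 and Sult1a1, and 1 fell, the arylacetamide deacetylase gene Aadac (831, 959 and 1096 against 584, 476 and 335; -1.08 ± 0.19, adjusted p = 0.0378). With 1 infused array left out, 0 (without saline-infused replicate 2 or 3) to 2 genes of the list were called. Gastrin differed from wild type for 25 probe sets in all (0.11%), 15 higher (0.0663%) and 10 lower (0.0442%). Of these, 8 were also among the 282.

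**Figure D2:**
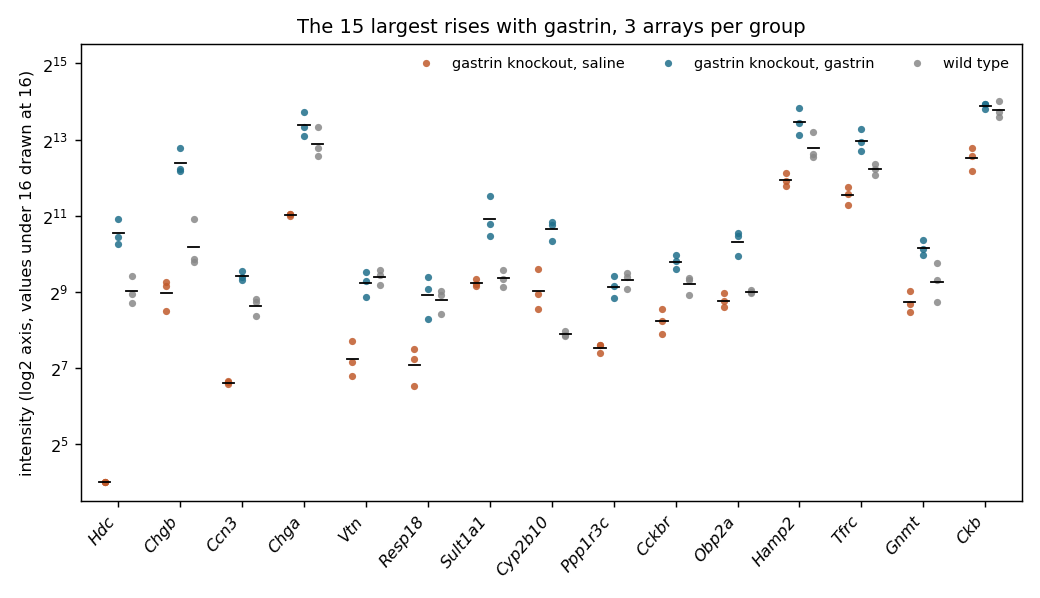
Intensity (log2 axis) of the 15 genes with the largest rises on each array: saline-infused knockout, gastrin-infused knockout and wild type, 3 arrays each, with a bar at the mean of the log2 values. Hdc goes from below the floor of 16 to between 1225 and 1926, and for Chgb, Ccn3 and Cyp2b10 the gastrin arrays are also above all wild-type arrays.

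Acid secretion by the parietal cell rests on the proton pump, a potassium channel that feeds it, and an anion exchanger on the opposite face of the cell. Of 17 measured genes of this machinery, 5 rose and 0 fell. Atp4a, the catalytic subunit of the pump, read 36260, 44845 and 35107 with saline and 61110, 56477 and 58502 with gastrin. The groups were apart, a 1.52-fold rise to the range of wild type, 56627 to 68031 (0.61 ± 0.11, adjusted p = 0.0393). Kcnq1, the pore of the potassium channel, read 1598, 2221 and 1216 against 4153, 3891 and 3614 (2.38-fold, 1.25 ± 0.24, adjusted p = 0.0432), and its partner subunit Kcne2 read 3202, 4085 and 3680 against 7349, 6928 and 6201 (1.87-fold, 0.90 ± 0.13, adjusted p = 0.0255). For both, all gastrin arrays were above all saline arrays.

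The anion exchanger gene Slc4a2 rose 1.71-fold (0.77 ± 0.13, adjusted p = 0.0332). The water channel gene Aqp4, which is found on the basal face of parietal cells, rose 1.91-fold on 1 of its 2 probe sets (0.94 ± 0.16, adjusted p = 0.0369). Atp4b, the second pump subunit, read 61331, 63565 and 54946 against 81333, 80635 and 79481; the groups did not overlap, and the difference missed the threshold (0.43 ± 0.09, adjusted p = 0.059). Car2, the carbonic anhydrase that supplies protons, gave -0.16 ± 0.08 with overlapping groups (adjusted p = 0.354). The list's median was 0.33, and the number called was 4 without saline-infused replicate 2, 1 without gastrin-infused replicate 3 and 0 without any one of the other four arrays. Of 14 genes of tubulovesicle traffic, which carries the pump to the secretory surface, 1 passed, and the median was -0.09. The call was the IP3-receptor-binding protein gene Ahcyl2, higher with gastrin on 1 of its 3 probe sets (0.67 ± 0.12, adjusted p = 0.0412). Sytl2, a Rab27-binding granule tether gene, was lower on every gastrin array without passing (-0.63 ± 0.15, adjusted p = 0.0867).

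Other cells of the fundic gland gave few calls. None of 10 chief cell genes passed, and the pepsinogen gene Pgc read 98408, 94278 and 87548 against 101319, 97797 and 97306, with overlap (0.08 ± 0.07, adjusted p = 0.654). Another pepsinogen gene, Pga5, read 7754, 10983 and 11539 against 7450, 5343 and 5431, lower on each gastrin array than on any saline array (-0.73 ± 0.17, adjusted p = 0.077). Of 5 mucous neck cell genes none passed, although all 5 had a negative fold change (median -0.31); Tff2, the neck cell trefoil factor gene, read 65354, 73062 and 65205 against 57259, 55673 and 56468 (-0.26 ± 0.08, adjusted p = 0.154). Surface mucous pit cells gave 2 falls among 15 genes and no rise. Krt20, a keratin of the surface epithelium, fell from 9156, 11706 and 8534 to 5282, 4819 and 3848 (-1.07 ± 0.18, adjusted p = 0.0329), and Gcnt3, a mucin glycosyltransferase gene, from 3284, 3438 and 3119 to 1955, 1784 and 2273 (-0.72 ± 0.13, adjusted p = 0.0388). With any one infused array left out, 0 pit cell genes were called with limma. With all arrays, 6 of the 15 had unadjusted p under 0.05, as did 17.0% of all genes. Lower without overlap were 6 of the 15 (40%, where 10.2% of all genes were). The pit cell mucin gene Muc5ac overlapped between groups (-0.14 ± 0.10, adjusted p = 0.566).

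Among 24 transcription factors and stem cell genes of gastric epithelium, 1 rose and 2 fell. Tnfrsf19, the receptor Troy found on slowly dividing gland cells, read 263, 190 and 270 against 663, 570 and 534 on 1 of its 3 probe sets (1.30 ± 0.20, adjusted p = 0.0273). Sox2, a factor of stomach and foregut progenitors, read 429, 422 and 444 against 279, 289 and 228, close to the wild-type 239 to 300 (-0.71 ± 0.12, adjusted p = 0.0316). Ehf, an epithelial ETS factor gene, read 1066, 787 and 1050 against 559, 549 and 561, again near wild type at 487 to 528 (-0.79 ± 0.13, adjusted p = 0.0316), and 2 of 3 probe sets passed. The groups did not overlap for any of these genes. Without saline-infused replicate 2 the list had 1 call, and without any one of the other infused arrays it had 0.

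Among 24 measured genes that other studies report to respond to gastrin, 1 passed on its brightest probe set, Chga, and Hdc passed on its other one. Their log2 fold changes ran from -1.96 to 4.31 with a median of -0.05; 6 were higher without overlap (25%, where 11.5% of all genes were) and 2 lower. Among EGF receptor ligands, Btc, encoding betacellulin, fell from 1331, 1392 and 1284 to 948, 827 and 736 on 1 of its 2 probe sets (-0.68 ± 0.11, adjusted p = 0.0299). Btc was the 1 call among 10 genes. Tgfa read 1500, 1748 and 1356 against 1112, 1106 and 788, lower without overlap (-0.63 ± 0.16, adjusted p = 0.104). Shh, the hedgehog ligand of parietal cells, read 367, 274 and 373 against 245, 189 and 178 (-0.73 ± 0.23, adjusted p = 0.166). The regenerating-protein gene Reg1 overlapped (240, 191 and 273 against 161, 241 and 167; adjusted p = 0.518).

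Iron, glycogen and energy genes added further rises. Tfrc, the transferrin receptor gene, read 3485, 3049 and 2471 with saline and 7905, 9853 and 6615 with gastrin on 1 of its 3 probe sets (1.43 ± 0.22, adjusted p = 0.0277). Hamp2, a hepcidin-family gene, read 3539, 4448 and 3873 against 11179, 14615 and 8917 on 1 of its 2 probe sets (1.53 ± 0.23, adjusted p = 0.0271). The iron hormone gene Hamp itself did not pass (0.73 ± 0.26, adjusted p = 0.21). The gastrin arrays of Tfrc and Hamp2 were above all saline arrays. These 2 were the calls among 18 iron genes, with 2 calls without gastrin-infused replicate 3, 1 without saline-infused replicate 2 and 0 without any other infused array. Hamp and Hamp2 are near-identical neighbours, so probes may share signal between them.

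Ppp1r3c, the subunit that brings a phosphatase to glycogen, read 193, 167 and 196 against 681, 455 and 574, with 537 to 727 in wild type. Gastrin thus lay at the wild-type range, a 3.04-fold rise (1.61 ± 0.19, adjusted p = 0.0108) on 1 of 2 probe sets, the other giving 0.27 (adjusted p = 0.491). It was the 1 call among 16 glycogen genes; Gys1, glycogen synthase, read 240, 272 and 145 against 433, 445 and 353 (0.95 ± 0.25, adjusted p = 0.105). Ckb, the brain-type creatine kinase gene, which buffers ATP, went from 6123, 7075 and 4646 to 15706, 15597 and 14374, in the wild-type range of 12404 to 16516 (2.6-fold, 1.38 ± 0.17, adjusted p = 0.014). Gnmt, encoding glycine N-methyltransferase, read 522, 353 and 414 against 1323, 1123 and 996 (1.43 ± 0.26, adjusted p = 0.0388). None of the 32 measured genes in the list of respiratory chain and citric acid cycle passed, although 29 had positive fold changes. In that list 21 were higher without overlap between groups (65.6%, where 11.5% of all genes were), and the median was 0.26. Respiratory chain genes outside that list, Ndufa10, Ndufa3 and Cox7a1, were called higher, but they were picked from the calls after the values were seen. Other respiratory chain genes outside the list were not counted.

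Liver-type secreted protein genes gave 3 rises among 10 genes: Vtn, Hamp2 and Apoa1. Vtn, encoding the adhesion protein vitronectin, read 144, 210 and 111 against 729, 624 and 468, with wild type at 581 to 763 and both probe sets called (2.00 ± 0.26, adjusted p = 0.0167). Apoa1, the main protein of high-density lipoprotein, read 16293, 22675 and 16896 against 32592, 33987 and 31475 (0.83 ± 0.16, adjusted p = 0.0441), and 3 of its 4 probe sets passed. Alb, the defining hepatocyte gene, read 243, 231 and 433 against 2225, 303 and 325; only gastrin-infused replicate 1 was high, and the groups overlapped (adjusted p = 0.631). With 1 array left out the list's calls ran from 0 (without gastrin-infused replicate 2 or saline-infused replicate 1) to 3, and its median of 0.90 was 0.47 without gastrin-infused replicate 1. Without the infused arrays numbered 1 the Alb log2 fold change was -0.011.

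Antiviral genes that interferon induces were among the falls. Their promoters typically hold the interferon-stimulated response element (ISRE). The windows of the 3 called genes of the list are printed for that reason, with the motif, a pair of GAAA runs separated by any 2 bases and searched on both strands, in capitals: chr12:26456403-26456702 on the minus strand for Rsad2, chr2:62646206-62646505 on the minus strand for Ifih1 and chr3:142620413-142620712 on the plus strand for Gbp2 (GRCm38.p6, RefSeq).
Rsad2: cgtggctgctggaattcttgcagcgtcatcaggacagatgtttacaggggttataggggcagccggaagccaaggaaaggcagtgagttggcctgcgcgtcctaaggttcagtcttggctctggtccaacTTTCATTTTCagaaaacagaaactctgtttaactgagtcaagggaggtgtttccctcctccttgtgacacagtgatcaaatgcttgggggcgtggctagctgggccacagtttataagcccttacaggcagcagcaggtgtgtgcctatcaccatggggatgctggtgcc
Ifih1: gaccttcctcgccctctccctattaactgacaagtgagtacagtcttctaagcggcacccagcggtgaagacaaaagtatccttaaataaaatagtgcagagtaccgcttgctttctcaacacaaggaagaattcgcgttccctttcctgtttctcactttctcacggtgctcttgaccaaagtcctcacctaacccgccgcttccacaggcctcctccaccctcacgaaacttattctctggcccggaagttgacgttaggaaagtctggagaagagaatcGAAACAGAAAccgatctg
Gbp2: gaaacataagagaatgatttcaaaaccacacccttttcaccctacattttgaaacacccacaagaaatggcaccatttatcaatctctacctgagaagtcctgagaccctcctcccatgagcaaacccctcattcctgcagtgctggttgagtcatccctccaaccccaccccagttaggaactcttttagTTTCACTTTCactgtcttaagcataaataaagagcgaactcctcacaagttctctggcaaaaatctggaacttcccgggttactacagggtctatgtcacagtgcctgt
All 3 windows hold the motif. It was in 3.44% of all promoters, in 7 of the 103 promoters of genes that fell (6.8%; the genes were Rsad2, Ifih1, Gbp2, Crybg1, Eps8l1 and Mndal) and in 3 of the 154 of genes that rose (1.95%). No test was made of these shares.

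Of 24 measured interferon response genes, 3 fell and 0 rose, and 23 had negative fold changes. Rsad2, encoding the antiviral enzyme viperin, read 2167, 768 and 595 with saline and 88, 161 and 194 with gastrin, with 327, 461 and 283 in wild type. The groups did not overlap, but saline-infused replicate 1 was far above the other two. The fall was 7.12-fold (-2.83 ± 0.52, adjusted p = 0.0412), and 2 of 3 probe sets passed. Ifih1, a sensor of viral double-stranded RNA, read 2605, 1656 and 1466 against 688, 970 and 797 (-1.19 ± 0.22, adjusted p = 0.0402), and Gbp2, an interferon-induced GTPase, read 468, 190 and 265 against 67, 19 and 61, the latter within the noise (at least 3.23-fold lower, -2.75 ± 0.49, adjusted p = 0.0388). The same replicate was highest for these genes too. A dim probe set of the viral RNA sensor gene Dhx58 also passed, with 49, 49 and 57 against -14, -37 and -68, all within the noise.

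Well-known members of the same list did not pass, though none of their groups overlapped. Ifit1 read 5099, 1355 and 1316 against 395, 564 and 281 (-2.39 ± 0.56, adjusted p = 0.0766), and Mx1, an antiviral GTPase gene, 1983, 832 and 611 against 310, 280 and 171 (-2.03 ± 0.44, adjusted p = 0.0658). Usp18, which removes the ubiquitin-like modifier ISG15, read 2541, 1015 and 893 against 360, 407 and 461 (-1.70 ± 0.37, adjusted p = 0.0645), and Irf9, a subunit of the interferon-activated transcription factor, 550, 440 and 508 against 335, 279 and 302 (-0.71 ± 0.14, adjusted p = 0.0519). In all 18 of the 24 were lower without overlap (75%; 10.2% of all genes were). The list's summed intensity was 60824, 35378 and 31160 with saline, 19012, 21334 and 20982 with gastrin and 23790 to 26732 in wild type. Its median was -0.92, and -0.64 without saline-infused replicate 1; 1 gene was called without saline-infused replicate 3 and 0 without any one of the other five arrays.

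Genes of MHC class I antigen processing, which interferon also induces, gave 2 falls among 14; without saline-infused replicate 2 there was 1 call, and without any other infused array 0. Tap1, the peptide transporter subunit, read 1673, 1082 and 1041 against 531, 698 and 639 on 1 of 4 probe sets (-1.0 ± 0.19, adjusted p = 0.0457), with its other probe sets dim. Psmb8, an immunoproteasome subunit, went from 254, 89 and 200 to -4, 29 and 38, within the noise (at least 1.86-fold lower, -2.67 ± 0.50, adjusted p = 0.0427). H2-D1, a class I heavy chain, read 18532, 16480 and 14970 against 12104, 12718 and 11433, apart but not past the test (-0.46 ± 0.11, adjusted p = 0.0873). No gene passed in the lists of MHC class II (8 measured), T and natural killer cells (11), B and plasma cells (9), myeloid cells (15) or mast cells (11), whose medians lay between -0.08 and 0.18.

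Genes of squamous epithelium formed another group of falls. In the mouse the forestomach, lined by a keratinised squamous epithelium, borders the fundus, so a scraping may include it. Of 25 measured genes, 5 fell and 0 rose, and 24 had negative fold changes (median -1.13). Only 7 were lower without overlap (28%, where 10.2% of all genes were). With any one infused array left out, 1 or 2 of the list's genes were called. Ly6d, a surface protein of squamous cells, read 4627, 3787 and 4313 with saline and 1300, 1870 and 1046 with gastrin (-1.63 ± 0.24, adjusted p = 0.0255). Slurp1, a secreted keratinocyte protein gene, read 1834, 1414 and 1692 against 396, 743 and 387 (-1.76 ± 0.34, adjusted p = 0.0468), and Sfn, the epithelial cell-cycle protein 14-3-3 sigma, 1530, 1944 and 2338 against 685, 913 and 576 (-1.42 ± 0.24, adjusted p = 0.0347). All 3 were lower on every gastrin array.

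S100a14, a calcium-binding epithelial protein gene, had the tightest of these changes. It read 2846, 2929 and 3032 with saline, 1326, 1237 and 1118 with gastrin and 2190, 1655 and 2037 in wild type. The 3 groups did not overlap (-1.26 ± 0.11, adjusted p = 0.00392), and the call held in all 6 left-out fits. Serpinb5, the epithelial serpin maspin, read 1154, 1214 and 1259 against 652, 649 and 397 on 1 of 3 probe sets (-1.13 ± 0.22, adjusted p = 0.0493). Sprr1a, a cornified-layer gene, read 15099, 14802 and 18333 against 8654, 10589 and 4841, apart but not past the test (-1.07 ± 0.24, adjusted p = 0.069). The keratin genes Krt5 and Krt13 and the gene Krtdap behaved otherwise. Krt5, the basal squamous keratin, read 2544, 316 and 3149 against 339, 1129 and 628, Krt13 read 5391, 1171 and 4370 against 301, 2822 and 485, and Krtdap read 13327, 1517 and 15026 against 256, 5826 and 1251. For each, saline-infused replicate 2 was low, gastrin-infused replicate 2 was high, and the groups overlapped (adjusted p = 0.588, 0.424 and 0.495). The list's sum followed them, at 102504, 54610 and 109288 with saline, 33107, 57120 and 33390 with gastrin and 42532 to 64086 in wild type. The part of squamous tissue in these falls was not tested.

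Further falls were of single genes. Lgals3, the beta-galactoside-binding lectin galectin-3, read 8098, 10309 and 8336 with saline, 3453, 2859 and 2500 with gastrin and 3464 to 4307 in wild type, a 3.04-fold fall to below the wild-type arrays (-1.61 ± 0.23, adjusted p = 0.024). The double knockout read 2652, 4771 and 2660, also below all saline arrays. Crybg1, a crystallin-like protein gene, read 978, 920 and 935 against 543, 495 and 289 (-1.15 ± 0.20, adjusted p = 0.0371). Akr1b8, an aldo-keto reductase gene, read 18790, 22929 and 18756 against 10803, 9440 and 9294 (-1.03 ± 0.17, adjusted p = 0.031). The gastrin arrays were below all saline arrays for each. Hspa1b, an inducible heat shock protein 70 gene, read 765, 666 and 1143 against 281, 208 and 246, and 2 of its 3 probe sets passed (-1.78 ± 0.30, adjusted p = 0.0346). Its near-identical copy Hspa1a read 396, 282 and 656 against 151, 184 and 182 (-1.29 ± 0.35, adjusted p = 0.112), and probes may not separate the 2 genes. The constitutive Hspa8 gave -0.16 ± 0.10 (adjusted p = 0.497), and Hspa1b was the 1 call among 16 heat shock genes; with any one infused array left out there were 0.

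**Figure D3:**
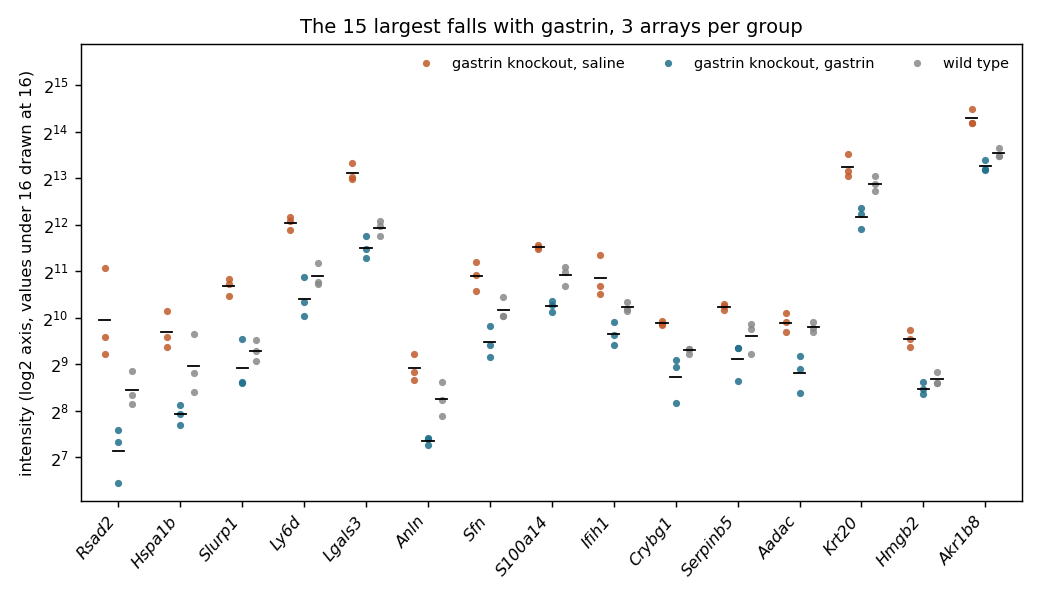
Intensity (log2 axis) of the 15 genes with the largest falls on each array: saline-infused knockout, gastrin-infused knockout and wild type, 3 arrays each, with a bar at the mean of the log2 values. S100a14 and Crybg1 vary little among the saline arrays, while Rsad2 has 1 saline array at 2167 and the others at 768 and 595.

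Genes of cell division gave few calls. Of 24 mitotic genes, 1 passed, Anln, the contractile ring protein anillin (407, 460 and 599 with saline against 171, 169 and 154 with gastrin; -1.55 ± 0.28, adjusted p = 0.0393; 0 mitotic calls with any one infused array left out), and the median was -0.59. Of 21 genes of DNA replication none passed on the brightest probe set; 20 had negative fold changes, 14 were lower without overlap (66.7%, where 10.2% of all genes were), 17 had unadjusted p under 0.05 (as did 2103 of 12393 genes, or 17.0%), and the median was -0.69. A dimmer probe set of the helicase subunit gene Mcm6 passed (278, 340 and 383 against 139, 109 and 121; -1.43 ± 0.21, adjusted p = 0.0255), but its brighter one overlapped (706, 1748 and 1316 against 1094, 330 and 318). Hmgb2, a chromatin protein gene of dividing cells, read 664, 744 and 856 against 353, 328 and 395 on 1 of 2 probe sets (-1.07 ± 0.14, adjusted p = 0.0167).

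The proliferation marker Mki67 read 1388, 2274 and 1889 with saline, 696, 813 and 695 with gastrin and 1017 to 1652 in wild type. Gastrin lay below both other groups, and the change did not pass (-1.31 ± 0.33, adjusted p = 0.0936). Birc5, encoding survivin, read 1059, 1464 and 1510 against 428, 533 and 484 (-1.47 ± 0.31, adjusted p = 0.0567), and Rrm2, a ribonucleotide reductase subunit, 1314, 1520 and 1549 against 731, 350 and 488 (-1.54 ± 0.35, adjusted p = 0.0707). Both groups of these genes were apart on all arrays. The replication list summed to 19304, 24698 and 24311 with saline and 17287, 12429 and 12828 with gastrin. The squamous list's sums, given above, were also lower on 2 of the 3 gastrin arrays than on any saline array, and their part in these differences was not tested.

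**Figure D4:**
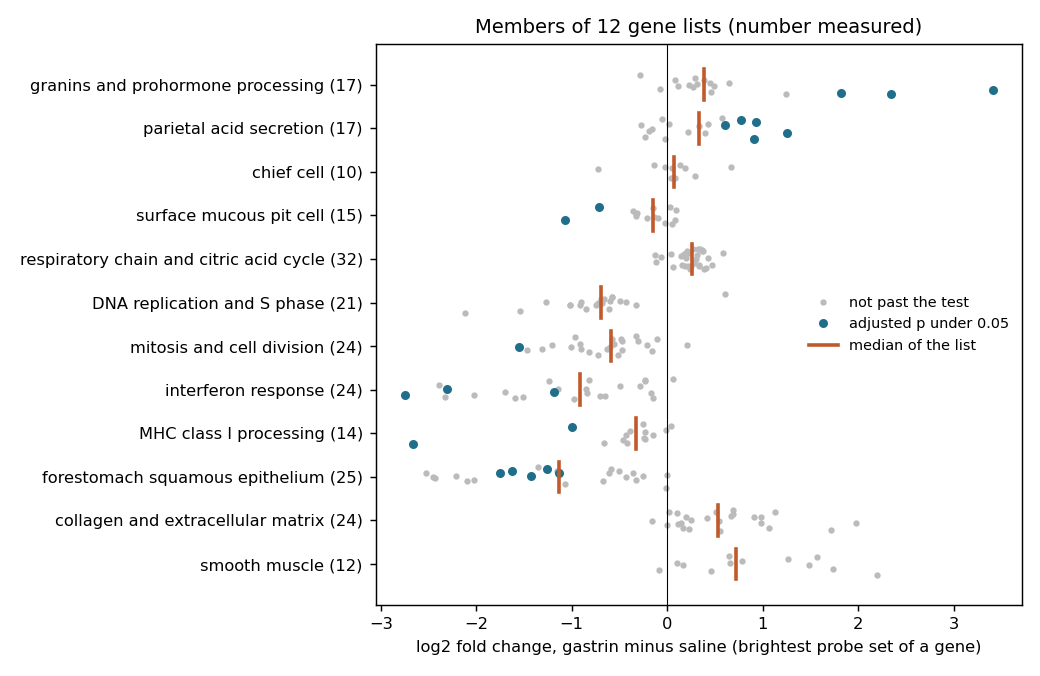
Log2 fold change (gastrin minus saline infusion) of the measured members of 12 gene lists, each gene by its brightest probe set; blue points passed the test and the vertical bars are list medians. The medians run from -1.13 for squamous epithelium to 0.72 for smooth muscle, and the 5 parietal calls lie above 0.

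Stromal genes gave no calls. Of 24 collagen and matrix genes 22 had positive fold changes (median 0.53) and 9 were higher without overlap (37.5%, where 11.5% of all genes were). Sparc, whose product binds collagen in the matrix, read 817, 421 and 1092 with saline, 1874, 3091 and 2279 with gastrin and 2093 to 2622 in wild type (1.71 ± 0.46, adjusted p = 0.112), and the proteoglycan gene Bgn 1573, 1172 and 1813 against 2871, 3182 and 3358 (1.07 ± 0.24, adjusted p = 0.0718). Col3a1 overlapped (3008, 2672 and 5642 against 4202, 7134 and 4698). Smooth muscle genes stood apart on a single array: the list summed to 49202 on gastrin-infused replicate 1 and to 12342 and 11322 on the others, against 8627 to 13788 with saline. Myh11, the smooth muscle myosin gene, read 2483, 369 and 277 against 190, 55 and 251. The list's median was 0.72, and 0.16 without gastrin-infused replicate 1. The part of these genes in other rises was not tested; without that array 58 probe sets were called higher and 39 lower.

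**Figure D5:**
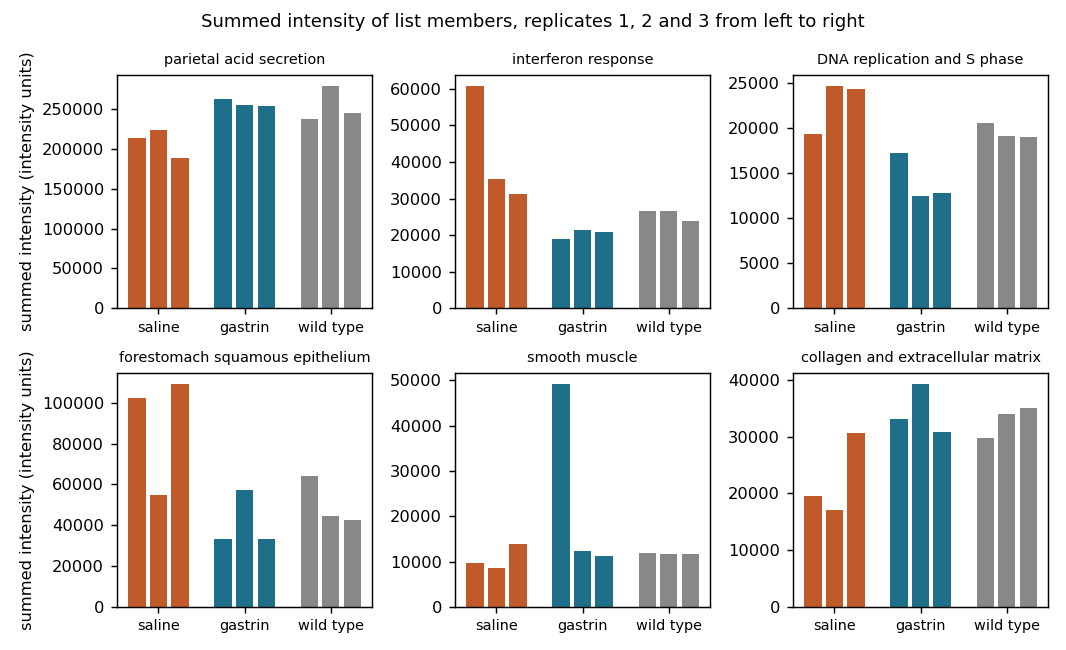
Summed intensity (intensity units) of the measured members of 6 gene lists on each array, replicates 1, 2 and 3 from left to right within the saline-infused, gastrin-infused and wild-type groups; axes start at 0. Smooth muscle is high only on gastrin-infused replicate 1 (49202), and interferon genes are highest on saline-infused replicate 1 (60824).

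Of the 30 genes named by size of change, the gastrin-infused level differed from wild type for Hdc and Cyp2b10, both higher. A difference that misses the threshold does not show that gastrin brought the other genes to the wild-type level, and the wild-type mice were not described as infused. The double knockout was also without gastrin and not described as infused. For Sst, Lgals3 and Krt20 it lay apart from the saline arrays on the gastrin-infused side. The same held for other called genes, among them the rises Kcnq1, Kcne2, Vtn, Ppp1r3c, Ccn3, Igfbp2 and Chga. Falls with this order included Ly6d, Slurp1, Sfn, S100a14, Crybg1, Akr1b8 and Hspa1b. For Hdc, Chgb, Cckbr, Obp2a, Cyp2b10 and Hamp2 the double knockout overlapped the saline arrays. For Atp4a it lay within the saline range. Among named list genes, Fkbp5, a glucocorticoid-responsive chaperone gene, read 3499, 3501 and 2993 with saline, 4270, 4847 and 4890 with gastrin and 2274, 2244 and 2395 in wild type. Both infused groups were above wild type (gastrin against wild type 1.02, adjusted p = 0.0184), and gastrin against saline did not pass (0.49 ± 0.12, adjusted p = 0.0813).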

How the data were processed

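The authors' deposited table gives linear intensity values, rounded to whole numbers, with a negative value for some dim probe sets. How the authors scaled, background-corrected and summarised the probes is not stated in the labels. Per the labels, total RNA was extracted with Trizol and a column kit and hybridised as biotin-labelled cRNA to one-colour arrays. Probe sets were named through the platform's probe table (20380 with 1 symbol, 691 with several, 1555 not listed). Since array medians were alike, the arrays were not rescaled. The log2 scale was used with a floor of 16. A mean per group was fitted over all 12 arrays (limma 3.58.1, R 4.3.3, empirical Bayes, 8 residual and 1.1 prior degrees of freedom), with Benjamini-Hochberg adjustment over 22626 probe sets; errors are standard errors of log2 fold changes. List sums count negative values as 0. A value within the noise gives a bound in place of a fold. The script was tested on simulated data. The number of arrays limits the precision.

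The rule for naming genes took the 15 largest rises and the 15 largest falls among probe sets past the test with 1 symbol, no overlap between groups and a brighter group mean no lower than the array-wide median (417). Besides these, Gast, Cck and members of 44 gene lists could be named. The comparison, lists and rules were chosen with earlier results of these data known. Alternatives were quantile normalization, median centring, floors of 1 and 64, a filter on dim probe sets, a mean-dependent prior, only the 6 infused arrays, the Gapdh ratio as covariate, a replicate block and leaving out each infused array. Saline and gastrin replicates of the same number did not deviate together (r = -0.18, -0.36 and -0.02 over 11313 probe sets), so the numbers were not used as pairs.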

Additional observations from a re-analysis of the deposited data

How the results depend on the processing

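The 282 calls (175 higher, 107 lower) changed with the setting. Leaving out 1 infused array gave 67 to 137 calls, 44 to 98 higher and 20 to 39 lower. Leaving out both infused arrays numbered 1 was chosen after seeing the data. Gastrin-infused replicate 1 is high in smooth muscle genes and saline-infused replicate 1 in interferon genes. With both left out 19 passed (5 higher and 14 lower), of which 9 were among the 282, and the Alb log2 fold change was -0.011. The 6 infused arrays alone gave 20 calls (15 higher and 5 lower), of which 13 were among the 282. That fit had fewer arrays to estimate the spread, and none of the pooled wild-type or double-knockout arrays. The Gapdh ratio as a covariate gave 152, 98 higher and 54 lower. Median centring gave 198, 114 higher and 84 lower, which moved the split towards falls. Quantile normalization gave 590, 352 higher and 238 lower, the filter on dim probe sets 705, 365 higher and 340 lower, and the mean-dependent prior 432, 248 higher and 184 lower. Floors of 1 and 64 gave 239 and 379; the Cck log2 fold change, near the noise, was 0.21 at the floor of 64. The replicate block gave 0 calls with limma, 0 higher and 0 lower, and 2739 probe sets at unadjusted p under 0.05; the samples share only a number. Of the 30 genes named by size of change, quantile normalization, the floor of 64, the mean-dependent prior and the filter (27 tested) lost 0, median centring 1, the floor of 1 lost 2, the Gapdh covariate 12, both arrays numbered 1 lost 25 and the 6 arrays alone 26. The causes were not tested. Values near the noise level of 85 to 96 units carry the least certain fold changes.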

Other observations

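Mitochondrial breakdown of branched-chain amino acids and ketone bodies was seen among the calls, and its textbook members were then listed after the values were seen, so the counts are a description. Of 24 measured genes, 9 rose and 0 fell (0.896% of all genes rose), all 24 had positive fold changes and 20 were higher without overlap (83.3%; 11.5% of all genes were). Oxct1, which activates ketone bodies for use, read 6959, 7540 and 6595 with saline, 13969, 16470 and 14396 with gastrin and 14158 to 20834 in wild type. Every gastrin array was above every saline array (2.12-fold, 1.09 ± 0.17, adjusted p = 0.0291 with limma), and 2 of 4 probe sets passed. The double knockout, which also lacks gastrin, read 11484, 9492 and 8127 for Oxct1, above all saline arrays. Bckdhb, a subunit of the branched-chain ketoacid dehydrogenase, read 2204, 2449 and 2100 against 4752, 4194 and 4055 (0.94 ± 0.15, adjusted p = 0.0312), and Hibadh, of valine breakdown, 3231, 3547 and 3284 against 6864, 7748 and 6120 with both probe sets called (1.04 ± 0.15, adjusted p = 0.0247). Ivd, of leucine breakdown, read 819, 762 and 815 against 1780, 1614 and 1529 on the dimmer of its 2 probe sets (1.04 ± 0.11, adjusted p = 0.00829). That call was kept in all 6 fits that left out 1 infused array. List counts use the brightest probe set, which did not pass for Ivd, so Ivd is not among the 9. The double knockout was above all saline arrays for Bckdhb, Hibadh and Ivd too. It overlapped them for Bcat2 and Bdh1, other called genes of the list. The list's summed intensity was 65068 to 72292 with saline, 101674 to 112300 with gastrin and 73816 to 93764 in the double knockout. With 1 array left out, the list's median of 0.52 ran from 0.44 to 0.59 and its calls from 0 (without gastrin-infused replicate 2 or saline-infused replicate 1 or 3) to 2. Parietal cells are rich in mitochondria, and the parietal acid secretion list rose beside it (summed intensity 188282 to 222960 with saline and 253858 to 262258 with gastrin); the part of that cell type was not tested.

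Fatty acid oxidation, listed in the same way, gave 3 rises among 21 genes, a median of 0.13 and 7 genes higher without overlap (33.3%, where 11.5% of all genes were). Another 2 were lower without overlap (9.52%, where 10.2% of all genes were), and 8 had negative fold changes. Phyh, of peroxisomal phytanic acid oxidation, read 13268, 14699 and 12584 against 26208, 26820 and 23914 (0.93 ± 0.10, adjusted p = 0.00829), while Acadm, the medium-chain dehydrogenase, read 11584, 10818 and 10295 against 11878, 12280 and 11767 (0.14 ± 0.08, adjusted p = 0.443). Other mitochondrial genes singled out after their values were seen were Cox7a1 and Pdhb. Cox7a1, a cytochrome oxidase subunit, read 1719, 2118 and 1980 against 4442, 4993 and 4666 (1.28 ± 0.13, adjusted p = 0.00784). Pdhb, of pyruvate dehydrogenase, rose on 1 of its 2 probe sets (0.79 ± 0.15, adjusted p = 0.0475).

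Genes under the oxidative stress factor NRF2, also listed after the values were seen, were on the lower side with gastrin for all 18 measured, and 12 were lower without overlap (66.7%; 10.2% of all genes were). Akr1b8 was the 1 that passed on its brightest probe set, and 0 were called with any one infused array left out. Nqo1, a quinone reductase gene, read 18934, 21393 and 14555 with saline, 9722, 11103 and 12175 with gastrin and 11492 to 12792 in wild type (-0.72 ± 0.17, adjusted p = 0.0807). Me1, the malic enzyme gene, read 10659, 13134 and 10527 against 6847, 5656 and 6361 on the probe set that passed (-0.86 ± 0.14, adjusted p = 0.0342).

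Clca1, a secreted mucous cell protein gene, read 10093, 10963 and 6792 with saline, 2309, 2700 and 2789 with gastrin and 1323 to 2343 in wild type, a 3.51-fold difference without overlap that did not pass (-1.81 ± 0.42, adjusted p = 0.0752). Igfbp2, an insulin-like growth factor carrier gene, read 1391, 1772 and 1440 against 3790, 3984 and 3747 (1.33 ± 0.14, adjusted p = 0.00845) and passed in all 6 left-out fits.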
